A study of Rattus norvegicus with 6 samples.

Results

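The genes described here encode the enzymes and transporters of central carbon metabolism: glucose entry, glycolysis, lactate production and export, the pyruvate dehydrogenase complex, the pentose phosphate pathway and the tricarboxylic acid (TCA) cycle. A list of 58 gene symbols was looked up in the gene column of the count files. Of these, 56 were found among 18237 rows, Aldoc and Idh3b were not, and 52 carried enough counts to be tested. The counts came from RNA sequencing of cultured rat heart cells, labelled NRVM, which commonly stands for ventricular myocytes of newborn rats; the growth protocol, however, names embryonic rat heart as the source. There were 3 libraries of cells given a control siRNA (siNT) and 3 of cells given an siRNA labelled si-Mt2, meant to lower Mt2, a metallothionein that binds zinc and copper. No strain, age, dose or time after transfection is given in the labels, and both groups share a protocol text that mentions dexamethasone, isobutylmethylxanthine and insulin but does not state which cells were given them. The labels do not say whether replicates came from separate cultures, so the p-values reflect how much these libraries vary, possibly for technical reasons alone.

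Glycolysis splits glucose into pyruvate, which is either reduced to lactate by lactate dehydrogenase and exported, or carried into mitochondria and turned into acetyl-CoA by pyruvate dehydrogenase. Acetyl-CoA feeds the TCA cycle, whose reduced cofactors drive respiration; the pentose phosphate pathway branches off at the start of glycolysis and yields NADPH and ribose phosphate. Several steps have isozymes, separate genes for the same reaction that differ between tissues. The adult heart burns mainly fatty acids, and the fetal heart relies more on glycolysis.

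Library totals lay between 2859759 and 6817777 counts, so that 3 counts, the most a gene with 0 counts may hide, equalled 0.440 to 1.05 CPM (counts scaled to a common library total). The 56 genes took between 1.38% and 1.41% of all counts in the siNT libraries and between 1.48% and 1.52% in those labelled siMt2. The targeted transcript Mt2a was not measurably lower, at 118 ± 45.01 CPM in siNT and 99.9 ± 37.3 CPM in the libraries labelled siMt2 (SD, n = 3 each), with an exact two-sided permutation p of 0.5 (the smallest possible is 0.1). Its log2 fold change was -0.28 and turned to 0.05 without siNT replicate 2, the highest siNT library. Groups are therefore named by their labels. The siMt2 replicate 3, the library with the lowest total, stood apart from the other siMt2 libraries: its counts differed from theirs by 2.18 and 2.29 times sampling noise, against 1.58 to 1.67 for the other same-label pairs. Without it 6254 of all genes passed in edgeR instead of 5971. Of 11 listed cardiomyocyte markers 9 were found and 1, Tnnt2, was tested. Tnnt2 rose from 27.2 ± 1.38 to 54.5 ± 5.19 CPM (log2 fold change 1.01, edgeR adjusted p = 1.81e-07). Myh6, Actc1, Tnni3 and Mybpc3 had 9, 4, 3 and 4 counts over all 6 libraries. Of 6 listed skeletal myoblast markers 5 were found and 3 tested, 2 higher and 1 lower, against 25.8% higher and 25.1% lower over all genes tested. Myod1 rose from 16.7 ± 0.224 to 23.1 ± 0.859 CPM and Des from 6.78 ± 3.02 to 25.1 ± 3.27 CPM. Myog fell from 5.62 ± 1.99 to 1.94 ± 0.487 CPM. Chrna1 and Myh3, with 12 and 26 counts, were not tested. Of 8 fibroblast markers tested 6 were higher and 0 lower, against 25.8% higher and 25.1% lower over all genes tested. Their summed level was 7601 to 7755 CPM in siNT and 9884 to 13857 CPM in the libraries labelled siMt2. Col1a1 alone averaged 4701 CPM in siNT and 7795 CPM in siMt2. Dcn and Lum, among the higher ones, had only 50 and 51 counts over all libraries, and Pdgfra, with 2, was not tested. Of 6 smooth muscle markers 4 were higher and 2 lower, and their sum went from between 2400.1 and 2433 to between 4143 and 4243 CPM. The part of these shifts in the results below was not tested. In such bulk libraries fewer cells of a type and less RNA per cell cannot be told apart.

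Genes of glycolysis, lactate handling and the pentose phosphate pathway were mostly higher in the libraries labelled siMt2, genes of the pyruvate dehydrogenase complex that passed were lower, and the TCA cycle went both ways. Values are CPM scaled by TMM, a library scaling method, and a fold change is siMt2 over siNT. Of the 52 genes tested 24 (46.2%) rose and 11 (21.2%) fell at an adjusted p under 0.05 in edgeR's quasi-likelihood test, and 17 did not pass. Over all 11726 genes tested, 50.9% passed, 25.8% higher and 25.1% lower, so many changes are the background here and only the direction and size of each gene's own change are described. The median log2 fold change was 0.09 for the 52 genes and 4.90e-04 for all genes. Most changes were small: the log2 fold change lay between -1.28 (Eno2, which did not pass) and 1.73 (Slc2a1). With each library left out in turn, the number that rose lay between 21 and 26 and the number that fell between 8 and 11; without siMt2 replicate 3, 26 rose and 11 fell.

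**Figure D1:**
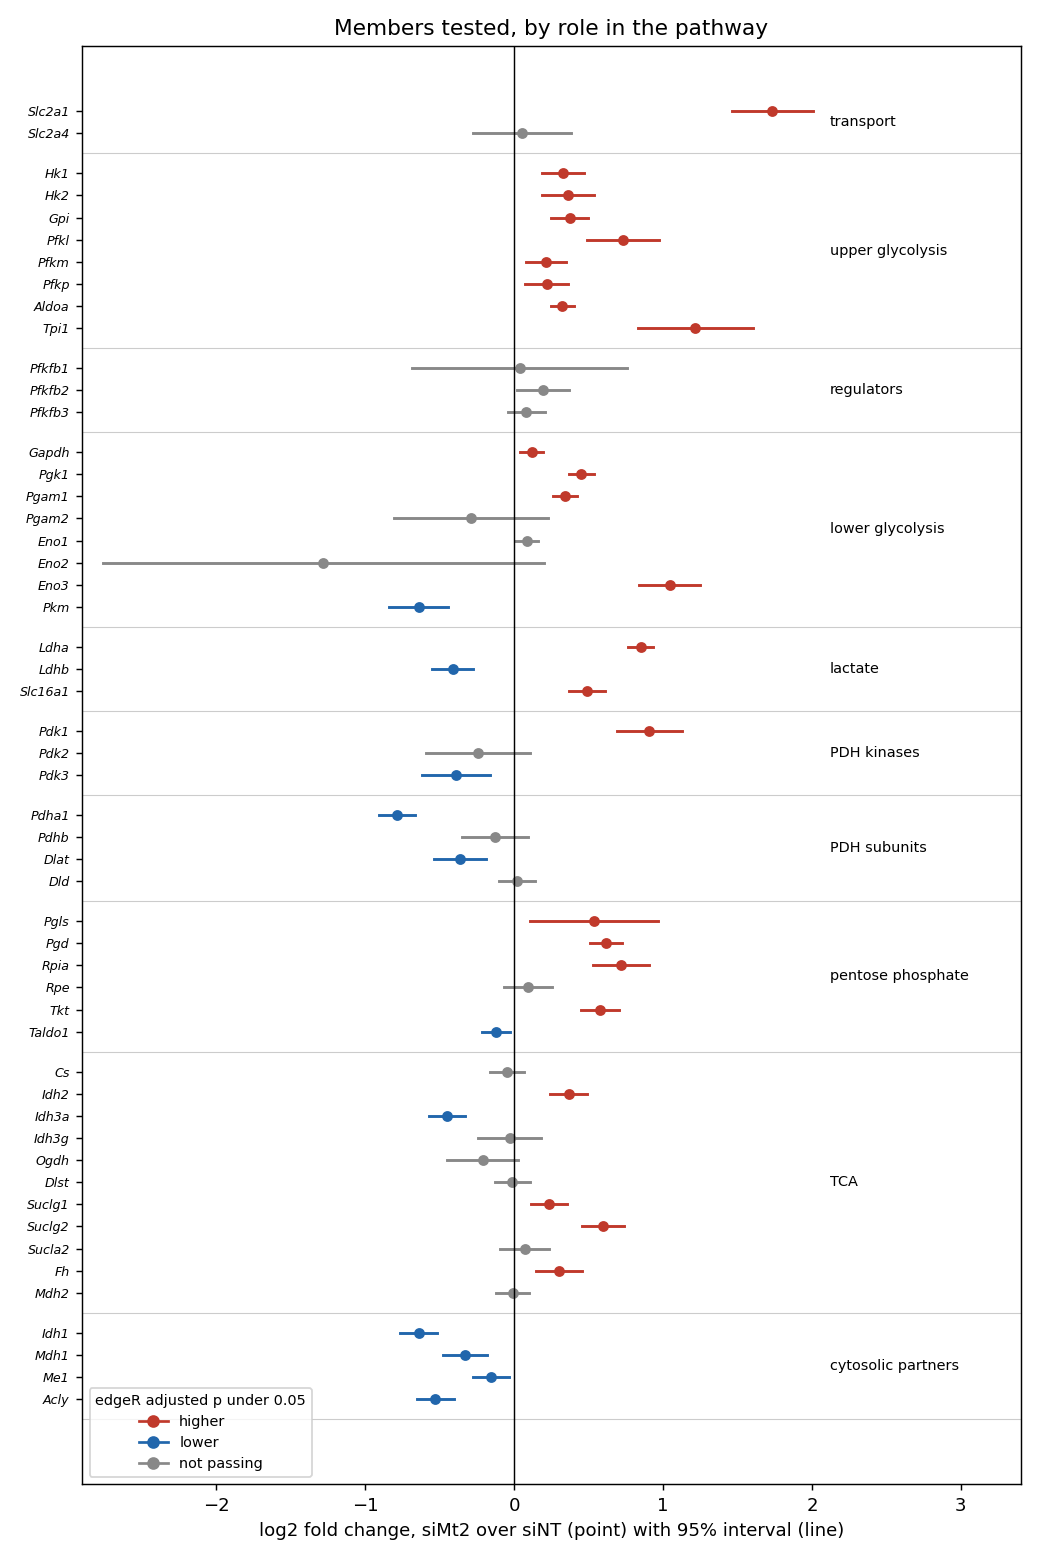
Log2 fold change (horizontal axis) of each of the 52 tested genes (vertical axis, grouped by role; PDH, pyruvate dehydrogenase), with points for the estimate, lines for its 95% interval and colours for the edgeR call at an adjusted p under 0.05. All 8 tested genes of upper glycolysis lie to the right of 0, and the 4 cytosolic enzymes at the bottom lie to its left.

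Glucose enters through transporters of the Slc2a family. Slc2a1, the transporter of most growing cells, measured 11.7, 14.3 and 12.3 CPM with siNT, against 41.3, 45.2 and 39.8 CPM under the siMt2 label. No siNT library came near the siMt2 values, and the 3.32-fold rise (log2 fold change 1.73, SE 0.13, edgeR adjusted p = 1.002e-09) was the steepest of the 52 genes. Slc2a4, the insulin-responsive transporter of muscle and fat, was at 15.5, 17.7 and 17.3 CPM and at 15.8, 20.3 and 16.6 CPM. Its groups overlapped, and its log2 fold change of 0.05 had a 95% interval of -0.28 to 0.38 (edgeR adjusted p = 0.7997). Slc2a3, a high-affinity transporter typical of neurons, had between 2 and 7 counts a library, too few for a test.

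All 8 upper glycolytic genes tested rose, by log2 fold changes of 0.21 to 1.22 with a median of 0.35, and in each of them the groups did not overlap. Groups without overlap were the case for 57.6% of all genes tested, 28.9% with siMt2 higher and 28.7% with it lower, and for 26 (higher) and 11 (lower) of the 52 genes. The hexokinases, which trap glucose as its phosphate, moved alike. Hk1 read 173, 187 and 159 CPM in siNT and 226, 225 and 193 CPM in siMt2, and Hk2 read 144, 144 and 131 CPM and then 203, 172 and 156 CPM. These rises were 1.26-fold for Hk1 (log2 fold change 0.33, SE 0.07, edgeR adjusted p = 4.99e-04) and 1.29-fold for Hk2 (0.36, SE 0.08, edgeR adjusted p = 0.00177). Gpi, the isomerase of the next step, rose from 146 ± 8.004 to 189 ± 10.7 CPM (0.37, SE 0.06).

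Phosphofructokinase, the committing step of glycolysis, has a liver (Pfkl), a muscle (Pfkm) and a platelet (Pfkp) isozyme. Pfkl had the largest change of them, from 52.4, 47.6 and 55.8 CPM to 92.4, 96.5 and 66.9 CPM (log2 fold change 0.73, SE 0.11, edgeR adjusted p = 4.88e-05). The siMt2 replicate 3, at 66.9 CPM, lay closer to siNT than the other siMt2 libraries did. Pfkm rose from 101 ± 3.61 to 117 ± 2.09 CPM (0.21, SE 0.06) and Pfkp from 96.8 ± 4.45 to 112 ± 6.86 CPM (0.22, SE 0.07). Both calls were marginal: Pfkm missed the threshold without siNT replicate 3 (log2 fold change 0.18, edgeR adjusted p = 0.0599). Pfkp missed it without siNT replicate 2 (0.18, adjusted p = 0.0755) and without siMt2 replicate 1 (0.16, adjusted p = 0.122), and both missed it in libraries thinned to equal depth (0.11 each).

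Aldoa, the muscle-type aldolase that cleaves the sugar into triose phosphates, was at 1433, 1422 and 1391 CPM in siNT and at 1803, 1811 and 1692 CPM in siMt2. The 1.25-fold rise exceeded the scatter of either group several times over (log2 fold change 0.32, SE 0.04, edgeR adjusted p = 4.18e-07). Tpi1, the triose phosphate isomerase, went from 7.95, 7.65 and 10.4 CPM to 18.2, 23.6 and 19.7 CPM (1.22, SE 0.19, edgeR adjusted p = 1.56e-05). Tpi1 is usually abundant, and RefSeq (GRCr8) lists 3 pseudogenes under its name. In all, 17 of the 56 genes have such named pseudogenes, 202 together, led by Gapdh with 79, Ldha with 30 and Eno1 with 30, and none of these has a row of its own in the counts. Since the handling of reads that match several copies is not stated, the levels of these 17 genes are uncertain.

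The Pfkfb genes encode bifunctional enzymes that make and break down a fructose bisphosphate that activates phosphofructokinase. Of the 3 tested none passed. Pfkfb3, the isozyme of proliferating cells, read 132, 131 and 135 CPM in siNT and 139.9, 148 and 132 CPM in siMt2 (log2 fold change 0.08, 95% interval -0.04 to 0.21, edgeR adjusted p = 0.277). Pfkfb2, the heart isozyme, read 68.1, 67.4 and 64.8 CPM and then 82.5, 71.2 and 74.0 CPM, and missed the threshold narrowly although its groups did not overlap (0.20, SE 0.08, edgeR adjusted p = 0.0559). It passed under 6 of 15 alternatives, among them library totals without TMM factors (adjusted p = 0.0453) and the fit without siMt2 replicate 3 (0.0282) or replicate 2 (0.0345). Pfkfb1 lay at 2.11 to 3.94 CPM in all libraries, and Pfkfb4, with 25 counts in total, was not tested.

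In lower glycolysis, which recovers ATP, 4 of 8 genes rose, 1 fell and 3 did not pass. The shares over all genes tested were 25.8% higher and 25.1% lower. Pgk1, phosphoglycerate kinase, stood at 583, 554 and 564 CPM in siNT and at 783, 772 and 772 CPM in siMt2, a 1.37-fold rise (log2 fold change 0.45, SE 0.04, edgeR adjusted p = 8.55e-09). Pgam1, the mutase that follows, stood at 1093, 1059 and 1026 CPM and then at 1315, 1331 and 1380.4 CPM (0.34, SE 0.04, edgeR adjusted p = 3.02e-07). Neither gene's siNT values reached the siMt2 range. Gapdh, the triose phosphate dehydrogenase often used as a reference gene, rose by only 1.08-fold, from 1584 ± 55.7 to 1718 ± 25.9 CPM (0.12, SE 0.04, edgeR adjusted p = 0.0107), and lost its call without siNT replicate 3 (0.09, adjusted p = 0.103).

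The enolase isozymes did not move alike. The ubiquitous Eno1 was at 1521, 1509 and 1473 CPM in siNT and 1613, 1531 and 1631 CPM in siMt2, and missed the threshold (log2 fold change 0.08, 95% interval 0.0081 to 0.16, edgeR adjusted p = 0.0603). It passed under 6 of 15 alternatives, including the fits without siMt2 replicate 2 (adjusted p = 0.0264) or replicate 3 (0.0370). Muscle enolase, Eno3, rose 2.06-fold, from 30.2, 29.6 and 31.1 CPM to 61.0, 61.0 and 66.9 CPM (1.04, SE 0.10, edgeR adjusted p = 2.83e-08). Eno2, the neuronal form, was scarce and uneven, at 1.26, 8.60 and 8.74 CPM in siNT against 2.34, 3.07 and 2.11 CPM in siMt2. With siNT replicate 1 far below its group, the fall was not called (-1.28, SE 0.64, edgeR adjusted p = 0.134), whereas without that library it was (-1.78, edgeR adjusted p = 2.75e-04), as also in DESeq2 (adjusted p = 0.0450). Pgam2, the muscle mutase, lay at 6.69 to 12.7 CPM with overlapping groups.

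Pkm, pyruvate kinase, which makes pyruvate, was the glycolytic gene that fell. It read 2156, 2342 and 2288 CPM in siNT and 1527, 1552 and 1264 CPM in siMt2. Every siMt2 library was below every siNT library, and the level came to 0.641 of that in siNT (log2 fold change -0.64, SE 0.08, edgeR adjusted p = 6.32e-04). The counts are per gene and do not separate the splice forms of Pkm. Because Pkm outweighed the rises, the summed level of the 8 lower glycolytic genes was 6919 to 7132 CPM in siNT and 6870.4 to 7017 CPM in siMt2, whereas the upper 8 summed to 2085 to 2167 and 2532 to 2766 CPM.

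**Figure D2:**
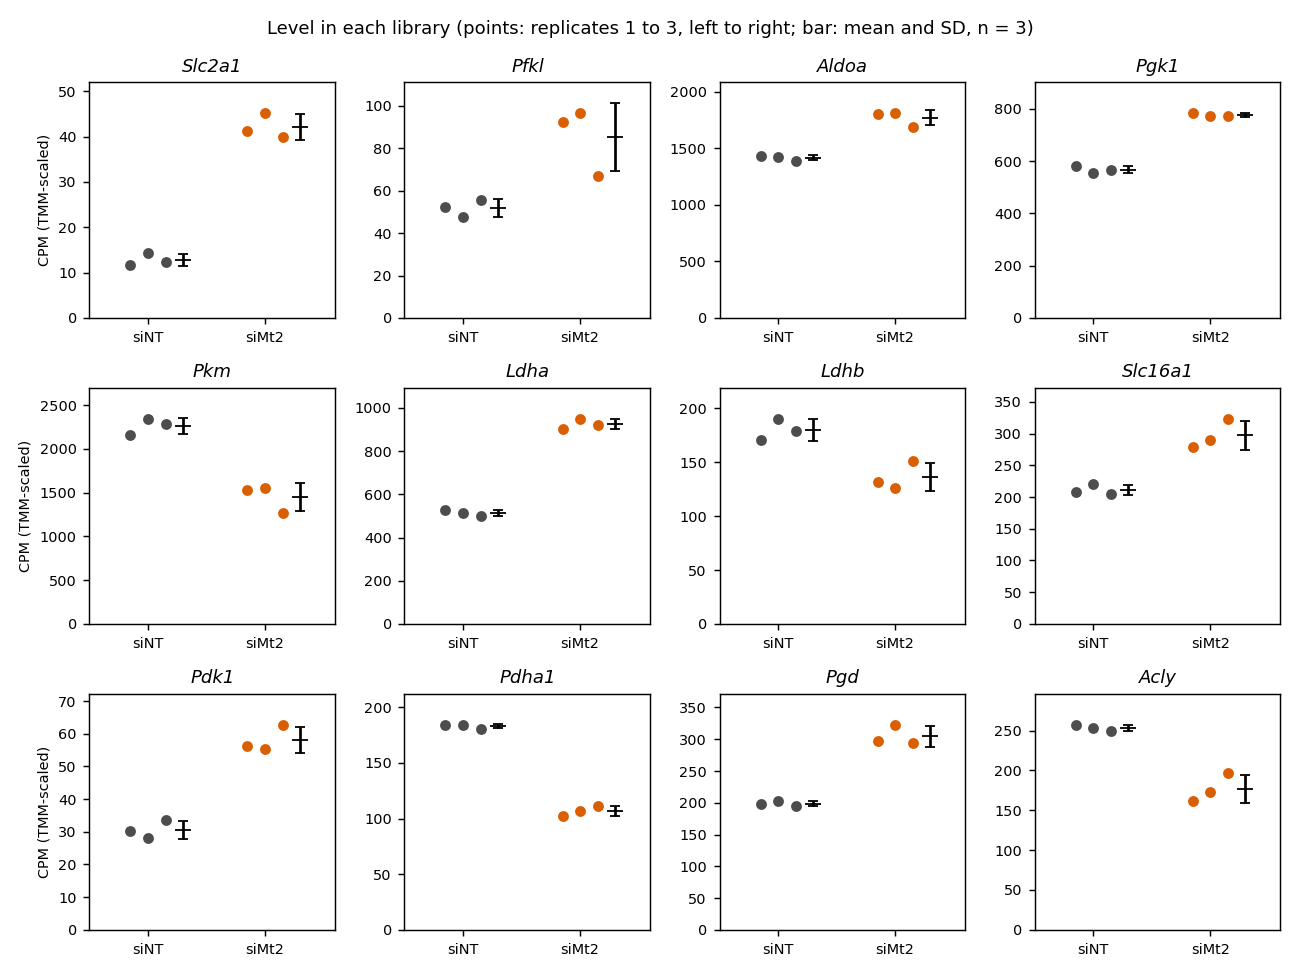
CPM (vertical axes, each from 0) of 12 genes in the 3 siNT and 3 siMt2 libraries; points are libraries and bars the mean and SD (n = 3). In each panel the groups do not overlap: Slc2a1, Pfkl, Aldoa, Pgk1, Ldha, Slc16a1, Pdk1 and Pgd are higher and Pkm, Ldhb, Pdha1 and Acly lower in the libraries labelled siMt2.

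Lactate dehydrogenase is a tetramer of A subunits, which prevail in glycolytic tissue, and B subunits, which prevail in the heart, and their genes moved in opposite directions. Ldha rose from 526, 512 and 501 CPM to 901, 949 and 922 CPM (log2 fold change 0.85, SE 0.04, edgeR adjusted p = 7.85e-13). Ldhb fell from 170.3, 190.0 and 179 CPM to 131, 126 and 151 CPM (-0.41, SE 0.07, edgeR adjusted p = 2.96e-05). Neither pair of groups overlapped. The monocarboxylate carrier Slc16a1, which moves lactate across the cell membrane, rose from 208, 220.1 and 205 CPM to 278, 289.9 and 323 CPM (0.49, SE 0.06, edgeR adjusted p = 5.13e-07). Slc16a3, the carrier of strongly glycolytic cells, had 42 counts in all and was not tested.

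Since the transport, glycolytic and lactate genes that passed were mostly higher, their promoter letters were searched for ACGTG on both strands. ACGTG is a form of the core bound by hypoxia-inducible factors, and other forms of that core were not searched. The E-box CACGTG holds ACGTG on both strands and then counts as 2 matches. RefSeq promoter windows (GRCr8) matched 51 of the 56 genes by symbol, and the 250 bases before each start were read. The letters were present in 16 of 51 genes (31.4%), against 23.7% of 8574 tested genes with a window and 18.1% of all 27457 genes with one. By call they were in 8 of 22 genes that rose (36.4%), 2 of 10 that fell and 6 of 16 that did not pass (37.5%). By role they were in 10 of 24 transport, glycolytic, regulator and lactate genes (41.7%) and 6 of 27 others (22.2%). The motif was about as frequent among genes that did not pass as among those that rose. These groups are small, and a link between the motif and the changes was not tested. A match is a run of letters and not a measured binding site. The 4 windows below belong to the genes of these roles with the smallest p that have a single start and a match; capitals mark ACGTG or its reverse complement CACGT. All are on the plus strand of GRCr8, at chr1:106507842-106508091 (Ldha), chr5:138002272-138002521 (Slc2a1), chr1:250672902-250673151 (Pgam1) and chr2:194812410-194812659 (Slc16a1).
Ldha: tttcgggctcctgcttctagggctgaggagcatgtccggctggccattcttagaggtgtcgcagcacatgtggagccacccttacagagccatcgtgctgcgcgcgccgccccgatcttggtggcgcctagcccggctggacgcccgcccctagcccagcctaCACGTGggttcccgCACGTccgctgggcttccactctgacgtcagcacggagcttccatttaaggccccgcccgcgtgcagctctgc
Slc2a1: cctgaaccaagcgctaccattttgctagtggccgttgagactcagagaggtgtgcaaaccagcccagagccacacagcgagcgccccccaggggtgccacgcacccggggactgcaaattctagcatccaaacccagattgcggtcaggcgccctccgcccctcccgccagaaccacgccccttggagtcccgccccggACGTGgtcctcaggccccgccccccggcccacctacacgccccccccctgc
Pgam1: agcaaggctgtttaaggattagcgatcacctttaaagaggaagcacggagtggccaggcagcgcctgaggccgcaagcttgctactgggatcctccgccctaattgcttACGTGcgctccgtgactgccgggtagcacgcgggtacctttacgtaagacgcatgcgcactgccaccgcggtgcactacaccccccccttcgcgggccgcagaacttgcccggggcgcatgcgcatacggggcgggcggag
Slc16a1: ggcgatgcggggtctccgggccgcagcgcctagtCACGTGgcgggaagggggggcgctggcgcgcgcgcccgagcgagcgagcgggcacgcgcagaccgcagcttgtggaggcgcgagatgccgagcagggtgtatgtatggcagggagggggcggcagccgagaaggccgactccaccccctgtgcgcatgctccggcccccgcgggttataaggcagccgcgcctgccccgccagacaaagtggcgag
Ldha held an E-box that begins 87 bases before the start and a further match at 73 bases, Slc2a1 a single match at 51 bases, Pgam1 a single match at 141 bases and Slc16a1 an E-box at 216 bases. Pkm and Ldhb, which fell, had no match in their windows, whereas Pdk3 and Dlat, which also fell, held the letters. Among the 22 genes that rose 14 had no match, Hk2, Pfkl and Eno3 included.

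Pyruvate dehydrogenase kinases switch the pyruvate dehydrogenase complex off by phosphorylating it. Pdk1, the hypoxia-inducible kinase, rose from 30.2, 28.0 and 33.6 CPM to 56.4, 55.3 and 62.7 CPM, 1.88-fold (log2 fold change 0.91, SE 0.11, edgeR adjusted p = 5.00e-07). Pdk3 fell from 71.7, 72.7 and 63.0 CPM to 44.2, 61.0 and 54.6 CPM (-0.39, SE 0.11, edgeR adjusted p = 0.00540), and without siMt2 replicate 1, its lowest library, the call was lost (-0.24, edgeR adjusted p = 0.0782). Pdk2 lay at 16.5 ± 1.78 and 13.7 ± 1.603 CPM with overlapping groups (-0.24, 95% interval -0.59 to 0.11). Pdk4, the kinase that rises with fatty acid use in heart and muscle, had 15 counts over all 6 libraries and was not tested.

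Among the subunits of the complex 2 of 4 fell and none rose, against 25.1% lower and 25.8% higher over all genes tested. Pdha1, the alpha subunit of the decarboxylase and the target of the kinases, was at 184, 184 and 181 CPM in siNT and at 102, 107 and 111 CPM in siMt2 (log2 fold change -0.79, SE 0.06, edgeR adjusted p = 7.42e-10). Among the 11 of the 52 genes that fell it had the largest fall, and replicates of a group differed by far less than the groups did. Dlat, the acetyltransferase core, fell from 84.4, 82.5 and 84.6 CPM to 64.2, 72.1 and 58.5 CPM (-0.36, SE 0.08, edgeR adjusted p = 0.00122). Pdhb, the partner of Pdha1 in the decarboxylase, was at 36.1 ± 1.27 and 33.1 ± 1.41 CPM and did not pass (-0.13, 95% interval -0.35 to 0.09). Dld, the dehydrogenase shared with other complexes, did not pass either (0.02, 95% interval -0.10 to 0.14).

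The pentose phosphate pathway had 4 of 6 genes higher and 1 lower, against 25.8% higher and 25.1% lower over all genes tested. Pgd, the dehydrogenase of the second NADPH-yielding step, rose from 198, 202 and 195 CPM to 296, 323 and 294 CPM (log2 fold change 0.62, SE 0.05, edgeR adjusted p = 4.55e-09). Rpia, the ribose phosphate isomerase, rose from 56.5, 53.8 and 49.7 CPM to 82.9, 83.5 and 98.2 CPM (0.72, SE 0.09, edgeR adjusted p = 1.38e-06). Tkt, transketolase of the non-oxidative branch, rose from 201, 220.4 and 204 CPM to 320.3, 330.4 and 276 CPM (0.58, SE 0.06, edgeR adjusted p = 2.15e-07). In these genes no siNT library reached the siMt2 range.

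The lactonase gene Pgls, at 8.93 ± 0.931 CPM in siNT and 13.1 ± 2.44 CPM in siMt2, rose (log2 fold change 0.53, SE 0.21, edgeR adjusted p = 0.0364), but at this low level the call was lost without siNT replicate 1 (0.45, adjusted p = 0.127), siNT replicate 3 (0.55, 0.0827) or siMt2 replicate 2 (0.39, 0.179). Transaldolase, Taldo1, which shares the non-oxidative branch with Tkt, went the other way by a small step, from 413 ± 10.7 to 379 ± 14.1 CPM (-0.12, SE 0.05, edgeR adjusted p = 0.0268). Its call was lost without siNT replicate 2 (adjusted p = 0.0504) or 3 (0.114) and without siMt2 replicate 1 (0.111) or 2 (0.101). The epimerase gene Rpe did not pass (0.09, 95% interval -0.07 to 0.25).

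Within the TCA cycle 4 of 11 genes tested (36.4%) rose, 1 fell and 6 did not pass, and the median log2 fold change was -0.01. Over all genes tested 25.8% rose and 25.1% fell. Genes at the entry and exit of the cycle did not pass: citrate synthase, Cs, read 242, 229.9 and 231 CPM in siNT and 237, 210.5 and 230.0 CPM in siMt2, and the mitochondrial malate dehydrogenase Mdh2 read 251, 234 and 229 CPM and then 226, 248 and 235 CPM. The 95% intervals of their log2 fold changes, -0.16 to 0.06 and -0.12 to 0.10, leave room for only small changes. Ogdh and Dlst, of the oxoglutarate dehydrogenase complex, did not pass either (-0.21, 95% interval -0.45 to 0.03, and -0.01, -0.13 to 0.11).

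Isocitrate is oxidised by an NAD-dependent enzyme (Idh3) and by NADP-dependent isozymes in mitochondria (Idh2) and cytosol (Idh1), and these differed. Idh3a, the catalytic subunit of the NAD-dependent enzyme, fell from 152, 151 and 148 CPM to 112, 106 and 112 CPM (log2 fold change -0.45, SE 0.06, edgeR adjusted p = 2.49e-06). Its regulatory subunit Idh3g lay at 43.7 to 53.3 CPM in all libraries (-0.03, 95% interval -0.24 to 0.18). Idh2 rose from 116, 113 and 107 CPM to 145, 144 and 143 CPM (0.37, SE 0.06, edgeR adjusted p = 3.88e-05). Idh1 fell from 152, 155 and 158 CPM to 98.7, 98.8 and 102 CPM (-0.64, SE 0.06, edgeR adjusted p = 2.18e-08).

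Succinyl-CoA synthetase pairs the common subunit Suclg1 with a GTP-forming (Suclg2) or an ATP-forming (Sucla2) partner. Suclg2 rose from 84.0, 78.2 and 80.9 CPM to 119.6, 121 and 128 CPM (log2 fold change 0.59, SE 0.07, edgeR adjusted p = 3.67e-07). Sucla2 read 75.9, 77.2 and 79.5 CPM and then 74.9, 87.0 and 84.2 CPM and did not pass (0.07, 95% interval -0.10 to 0.24). Suclg1 rose from 175 ± 13.5 to 206 ± 4.12 CPM (0.23, SE 0.06, edgeR adjusted p = 0.00239) and fumarase, Fh, from 80.0 ± 2.13 to 97.9 ± 7.11 CPM (0.30, SE 0.07, edgeR adjusted p = 0.00211).

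The 4 listed cytosolic enzymes that take up or exchange TCA intermediates were lower, against 25.1% lower over all genes tested. This does not hold for the cytosol as a whole. The aminotransferase Got1, a partner of Mdh1 in the malate-aspartate shuttle, rose from 183 ± 3.95 to 286 ± 23.6 CPM (0.64 on the log2 scale, SE 0.06, edgeR adjusted p = 1.40e-08). Besides Idh1, Acly, which splits citrate to acetyl-CoA for lipid synthesis, fell from 257, 253 and 249 CPM to 162, 173 and 196 CPM (log2 fold change -0.53, SE 0.06, edgeR adjusted p = 4.28e-07). Mdh1, of the malate-aspartate shuttle, fell from 143, 149.6 and 132 CPM to 117, 101 and 119 CPM (-0.33, SE 0.07, edgeR adjusted p = 6.59e-04). For Acly and Mdh1 the siMt2 libraries all lay below siNT. The cytosolic malic enzyme Me1, another source of NADPH, fell by less, from 234, 209 and 237 CPM to 198, 206 and 209.9 CPM, with groups that overlapped (-0.16, SE 0.06, edgeR adjusted p = 0.0269). Its call was lost without siNT replicate 1 (adjusted p = 0.0872) or 3 (0.143) and without siMt2 replicate 1 (0.135) or 2 (0.0529).

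**Figure D3:**
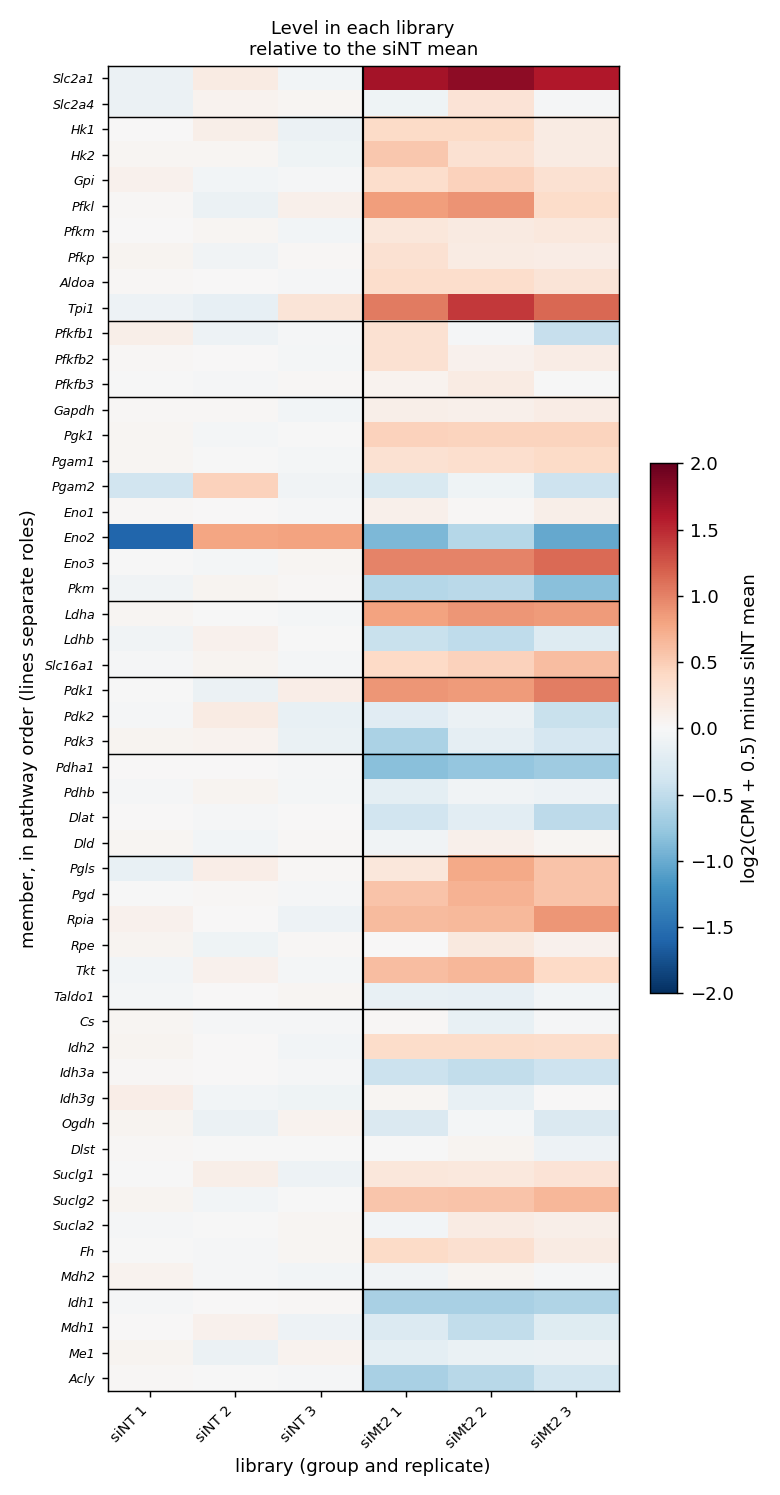
Level of each tested gene (rows, in pathway order, lines between roles) in each library (columns), as log2(CPM + 0.5) minus the siNT mean, from blue (lower) to red (higher). Slc2a1 is red and Pdha1 and Idh1 are blue in all 3 siMt2 libraries, and Eno2 differs among the siNT libraries.

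Isozymes were also compared as the log2 ratio of their counts within a library, where library scaling cancels. The counts are not divided by gene length, so only the change of a ratio is read, not its level. Of 16 pairs listed 12 had both genes tested. The exact two-sided permutation p can reach no less than 0.1 with 3 against 3 libraries, or 0.2 adjusted over the 12 pairs by Benjamini-Hochberg, so none can pass and the ranges are given as a description. In 6 pairs the groups did not overlap, 3 higher and 3 lower, each with that smallest p. Among single genes 57.6% of all those tested had groups without overlap, and the share over other gene pairs was not computed.

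The Ldha to Ldhb ratio went from 1.63, 1.43 and 1.48 to 2.78, 2.91 and 2.61 on the log2 scale, a difference of 1.25. Pdk1 to Pdk2 had a difference of 1.19, from 0.89, 0.60 and 1.17 to 2.00, 1.86 and 2.37. Eno3 to Eno1 changed by 0.97, from -5.65, -5.66 and -5.56 to -4.72, -4.65 and -4.60. In these 3 pairs every siMt2 library exceeded every siNT library. The order of their sizes is not fixed: with single libraries left out, the difference lay between 1.18 and 1.33 for Ldha to Ldhb and between 1.05 and 1.33 for Pdk1 to Pdk2. Eno2 to Eno1, whose groups overlapped, had a difference of -0.94, which became -1.85 without siNT replicate 1, -0.50 without siNT replicate 2 and -0.47 without siNT replicate 3.

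Ratios that fell were Idh1 to Idh2, from 0.39, 0.46 and 0.57 to -0.55, -0.54 and -0.49 (difference -1.002), Sucla2 to Suclg2, from -0.15, -0.02 and -0.02 to -0.67, -0.48 and -0.61 (-0.52), and Mdh1 to Mdh2, from -0.81, -0.65 and -0.80 to -0.95, -1.30 and -0.98 (-0.33). The hexokinase pair overlapped, with Hk2 to Hk1 at -0.26, -0.38 and -0.28 in siNT and -0.15, -0.39 and -0.30 in siMt2, and so did Pfkp to Pfkm (differences 0.02 and 0.0017). Pfkl to Pfkm differed by 0.49 with groups that overlapped through siMt2 replicate 3 (-0.81, against -0.36 and -0.25 in the other siMt2 libraries and -0.80 in siNT replicate 3).

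**Figure D4:**
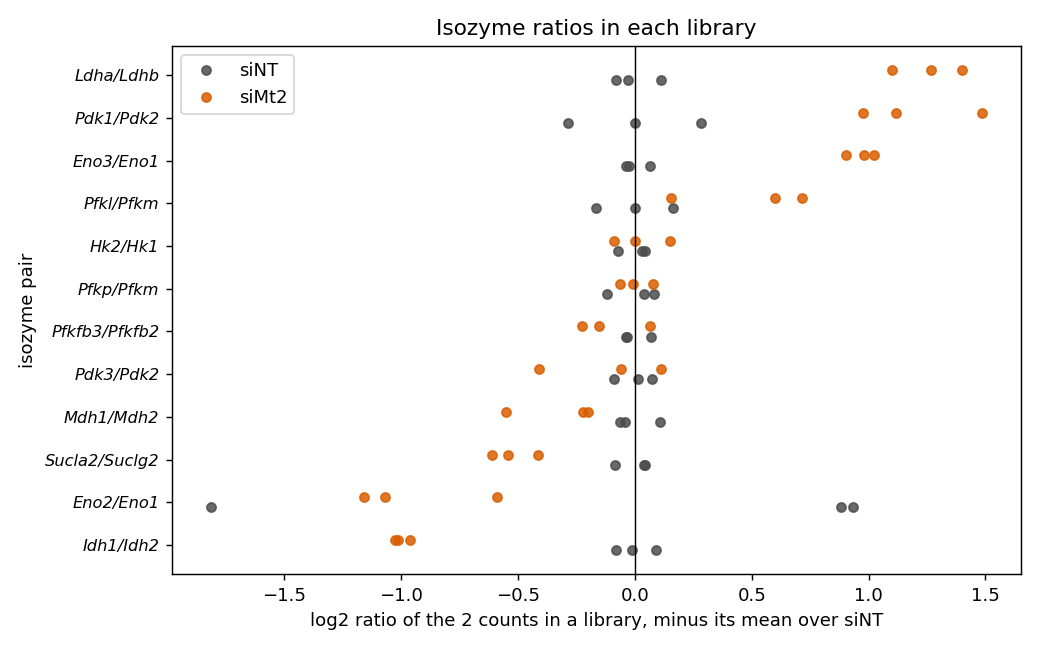
Log2 ratio of the counts of 2 isozymes in each library (points), minus its mean over the siNT libraries (horizontal axis), for 12 pairs (vertical axis). Ldha/Ldhb, Pdk1/Pdk2 and Eno3/Eno1 lie to the right in all siMt2 libraries, Idh1/Idh2, Sucla2/Suclg2 and Mdh1/Mdh2 to the left, and Hk2/Hk1 and Pfkp/Pfkm overlap.

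A further 45 genes of the same pathways served for comparison, of which 40 were found and 34 tested. Of these 11 rose, 10 fell and 13 did not pass, with a median log2 fold change of 0.10. Over all genes tested 25.8% rose and 25.1% fell. Around Pdha1, the mitochondrial pyruvate carrier subunits Mpc1 (-0.63, SE 0.09) and Mpc2 (-0.26, SE 0.11) and the binding protein Pdhx (-0.30, SE 0.11) fell. Pdp1, a phosphatase that reverses the kinases, rose (0.56, SE 0.13), and Pdpr, the regulatory subunit of that phosphatase, fell (-0.79, SE 0.12). Pyruvate carboxylase, Pc, which refills the cycle, fell from 93.1 ± 1.24 to 63.2 ± 6.23 CPM (-0.54, SE 0.08). In the cycle itself Sdha, of succinate dehydrogenase, fell (-0.55, SE 0.10), whereas its other subunits Sdhb, Sdhc and Sdhd did not pass. The carriers that exchange citrate and oxoglutarate for malate, Slc25a1 (1.04, SE 0.12) and Slc25a11 (1.19, SE 0.12), and the mitochondrial phosphoenolpyruvate carboxykinase Pck2 (1.54, SE 0.09) rose. The edgeR adjusted p of these genes that passed was at most 0.0436.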

How the data were processed

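Gene counts of 6 RNA-seq libraries (3 siNT, 3 siMt2) were grouped by sample title. The authors deposited raw whole-number counts per gene, unnormalized; Trimmomatic 0.40, HISAT2 2.2.1, featureCounts, limma, DESeq2 and build rn6 are named, per the submitters' processing notes, without order or settings. Strand and multi-mapping rules are not given in the sources used here. In 25 rows (0.260% of counts) names had become dates, spelled differently between files; these rows were matched by position and stayed in the totals.

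In R 4.3.3, edgeR 4.0.16 (filterByExpr with minimum count 10, TMM, robust quasi-likelihood test, two-sided, Benjamini-Hochberg over 11726 genes, threshold 0.05) gave the values; SE is the log2 fold change over the root of the F statistic, and 95% intervals use it. CPM are TMM-scaled. Alternatives were DESeq2 size factors, upper quartile scaling, library totals alone, no filter, a stricter filter, a replicate block, DESeq2 1.42.0, limma-voom (limma 3.58.1), thinned libraries and each library left out. The procedure was tested on simulated data. Named are all 58 listed genes, in full the leading ones of each role. Some of the further pathway genes are counted but not reported here by name. The genes and lists were chosen with earlier results of these data known. Listed but not described above are endothelial (0 higher, 1 lower of 2 tested), adipocyte (0 and 1 of 1) and leukocyte (0 and 1 of 1) markers. Pairs of libraries with the same label had chi-square values 1.58 to 2.29 times those of sampling noise, so each was counted as a library of its own.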

Additional observations from a re-analysis of the deposited data

How the results depend on the processing

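The counts of genes that rose (24) and fell (11) stayed within 21 to 26 and 8 to 12 over 15 alternatives, and all genes passing within 4538 (thinned libraries) and 6276 (no filter), with 5971 as reported. Eno2 and Pfkfb1 were too low to test in thinned libraries, and Eno2 also under the stricter filter. Of the 35 calls, 28 held in each alternative, 7 (Pfkm, Pfkp, Gapdh, Pdk3, Pgls, Taldo1 and Me1) missed the threshold in some, and 0 changed sign. Of 17 genes not passing, 3 (Pfkfb2, Eno1, Eno2) passed in some. Upper quartile scaling moved the median of all genes to 0.039; under it Taldo1 (adjusted p = 0.102) and Me1 (0.0827) were lost. DESeq2 lost Pfkp (0.0538), Pgls (0.0961), Taldo1 (0.0724) and Me1 (0.0785), and limma-voom lost Pgls (0.0525). Thinned libraries lost Pfkm (0.369), Pfkp (0.349), Taldo1 (0.228) and Me1 (0.0860). The cause was not tested. The replicate numbers did not pair the libraries (correlations of same-numbered deviations -0.0010, -0.058 and 0.025, and not every library correlated best with its own number), and with the number as a replicate block 24 genes rose, 11 fell and 5897 of all genes passed.

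Log2 fold changes that changed sign were those of genes that did not pass. Under upper quartile scaling these were Idh3g (0.0089), Dlst (0.027) and Mdh2 (0.027), with thinned libraries Mdh2 (0.0097), and with the replicate block Pfkfb1 (-0.022). With single libraries left out, values ranged from -0.063 to 0.15 for Slc2a4, -0.23 to 0.19 for Pfkfb1, -0.023 to 0.073 for Dld, -0.091 to 0.0014 for Cs, -0.077 to 0.040 for Idh3g, -0.047 to 0.027 for Dlst, -0.046 to 0.027 for Mdh2 and -0.56 to 0.052 for the targeted Mt2a. Depth limits Slc2a3, Pfkfb4, Slc16a3 and Pdk4, which had 15 to 42 counts in total.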
